A study of Homo sapiens with 6 samples.

Results

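The long noncoding RNAs with symbols of LINC00 and 3 further digits were followed in RNA sequencing of cells treated with panobinostat, an inhibitor of the histone deacetylases. Members were all rows of the deposited counts table with such a symbol in GENCODE release 29 and a summed raw count of 50 or more over the 6 libraries. They numbered 73, out of 138 rows with such a symbol and 22718 rows in all, and the summed counts that chose them are a description with no test. The libraries are labelled HT1197, an established human bladder carcinoma line. Panobinostat was given for 48 hours at 2 times the dose that inhibits the line by 50% (3 libraries, A to C), and vehicle (1% DMSO) for the same time (3 libraries, A to C). The cells of both groups were of the same line with no other treatment named, and the libraries held 13417898 to 18186087 counts each. Dishes were seeded in triplicate and no label ties a library to a dish, so a p-value here speaks of the spread of these 3 libraries a group, and that spread may be technical. Just outside the minimum lay LINC00562 and LINC00515 with 46 counts, LINC00173 with 47 and LINC00311 with 48. Just inside lay LINC00525 and LINC00242 with 51 counts and LINC00299 and LINC00997 with 55.

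Long intergenic noncoding RNAs are transcripts of RNA polymerase II that are spliced and polyadenylated much like messenger RNAs but hold no long reading frame. A LINC number is a place-holder that the nomenclature committee gives to a noncoding gene with no established function, so the family is defined by naming and not by ancestry, sequence or mechanism. Such RNAs are as a rule less abundant and more restricted to cell types than messenger RNAs. Histone deacetylases remove acetyl groups from the histones around promoters and enhancers, marks that go with active transcription, and inhibitors such as panobinostat raise acetylation across the genome.

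Promoter windows are shown for the 3 members with the largest rises and the 3 with the largest falls among called members whose groups do not overlap, and which average at least 0.5 CPM, have an entry in RefSeq's table and lie on a chromosome whose sequence is printed here. They let rises and falls be compared letter by letter. LINC00642 fell by more than LINC00847 and has an entry, but its groups overlapped. Each window runs 5′ to 3′ on the gene's strand from 250 bases before to 50 bases after the RefSeq start (GRCh38.p14). Capitals mark matches on either strand to the GC box GGGCGG, to the core TGACGT of the cAMP response element, CCAAT and the TATA box TATAAA, the E-boxes CACGTG and CAGCTG, and the AP-1 motifs TGAGTCA and TGACTCA. The RefSeq starts of LINC00682 and LINC00242 lie 344 and 724 bases from the GENCODE starts.
LINC00290, chr4:181159100-181159399, minus strand: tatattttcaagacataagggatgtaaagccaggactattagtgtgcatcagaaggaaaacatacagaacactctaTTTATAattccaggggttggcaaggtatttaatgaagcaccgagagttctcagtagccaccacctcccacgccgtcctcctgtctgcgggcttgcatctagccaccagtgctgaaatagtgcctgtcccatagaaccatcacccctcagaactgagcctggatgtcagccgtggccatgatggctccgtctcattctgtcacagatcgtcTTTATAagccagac
LINC00243, chr6:30830610-30830909, minus strand: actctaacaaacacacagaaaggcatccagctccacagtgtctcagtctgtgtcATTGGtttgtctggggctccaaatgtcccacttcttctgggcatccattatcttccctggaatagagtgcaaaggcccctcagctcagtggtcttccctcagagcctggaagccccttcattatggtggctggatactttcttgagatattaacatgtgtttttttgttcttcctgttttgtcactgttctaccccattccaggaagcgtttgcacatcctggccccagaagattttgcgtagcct
LINC00479, chr21:41715726-41716025, minus strand: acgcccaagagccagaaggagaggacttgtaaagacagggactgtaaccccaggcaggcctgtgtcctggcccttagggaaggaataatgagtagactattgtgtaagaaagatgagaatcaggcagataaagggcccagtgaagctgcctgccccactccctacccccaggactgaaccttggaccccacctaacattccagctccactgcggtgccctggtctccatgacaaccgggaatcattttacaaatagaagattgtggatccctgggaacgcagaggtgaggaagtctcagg
LINC00682, chr4:41882562-41882861, minus strand: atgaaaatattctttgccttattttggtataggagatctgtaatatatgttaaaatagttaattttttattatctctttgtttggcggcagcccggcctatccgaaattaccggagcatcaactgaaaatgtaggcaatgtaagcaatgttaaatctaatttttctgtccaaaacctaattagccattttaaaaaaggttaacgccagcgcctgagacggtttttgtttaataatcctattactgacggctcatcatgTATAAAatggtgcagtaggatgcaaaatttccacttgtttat
LINC00242, chr6:169798776-169799075, minus strand: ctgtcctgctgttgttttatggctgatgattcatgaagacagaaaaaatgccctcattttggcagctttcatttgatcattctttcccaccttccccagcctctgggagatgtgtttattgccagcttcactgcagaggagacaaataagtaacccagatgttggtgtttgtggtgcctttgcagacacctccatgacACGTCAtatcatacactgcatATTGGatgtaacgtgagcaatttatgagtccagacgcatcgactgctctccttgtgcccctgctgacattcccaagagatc
LINC00847, chr5:180830707-180831006, plus strand: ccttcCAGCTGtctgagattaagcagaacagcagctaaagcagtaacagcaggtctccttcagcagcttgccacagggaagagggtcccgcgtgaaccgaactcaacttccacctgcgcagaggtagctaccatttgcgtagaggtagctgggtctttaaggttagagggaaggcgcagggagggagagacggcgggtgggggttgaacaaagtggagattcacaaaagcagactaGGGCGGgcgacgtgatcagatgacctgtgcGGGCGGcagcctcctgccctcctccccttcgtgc
The first 3 rose and the last 3 fell. Of these windows LINC00290 held TATAAA at 2 places, LINC00243 held CCAAT, and LINC00479 held none of the motifs. LINC00682 held TATAAA, LINC00242 held the TGACGT core and CCAAT, and LINC00847 held GGGCGG at 2 places and CAGCTG. No motif was thus shared by all windows of either set, and a match is a run of letters, not a site shown to be bound.

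Over all 46 members with an entry, the promoter window held a median of 8.5 CpG dinucleotides, against 14 over all 35116 windows of the table. A CpG-rich window of 20 or more was present for 14 of the 46, against 41.2% of all windows. By call these were 9 of 21 members that rose, 0 of 6 that fell and 5 of 18 that did not pass. Some windows lie far from the GENCODE start, by 179048 bases for LINC00877 and 5209 for LINC00963, the latter among the CpG-rich rises. The windows of LINC00526 and LINC00667, also among those rises, overlap, so a shared CpG-rich stretch counts for both. GGGCGG was found in 18 of the 46 windows (45.0% of all windows), the TGACGT core in 3 (8.0%), CCAAT in 20 (34.6%), TATAAA in 6 (11.5%), an E-box in 12 (23.9%) and an AP-1 motif in 3 (4.9%).

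The label of the cells was checked against markers. Of 18 urothelial markers listed 10 had a row; 0 stood at 10 FPKM (counts scaled to gene length and depth) or more with panobinostat and 1, GATA3, with vehicle. Their summed level was at most 15.5 FPKM with panobinostat and at most 15.2 FPKM with vehicle, and UPK1B, FOXA1 and TP63 had 0 vehicle counts. Of 12 markers of noradrenergic neuroblasts, 9 stood at 10 FPKM or more with panobinostat and 11 with vehicle. Their summed level was 1510 to 1580 FPKM with panobinostat and 1760 to 1990 FPKM with vehicle, and 1 rose and 8 fell. The marker levels thus go against the label of bladder carcinoma in all 6 libraries, and what follows holds for the libraries labelled HT1197. Of 6 fibroblast markers 4 rose and 1 fell, with a summed level of 73.6 to 79.3 FPKM with panobinostat and 31.0 to 33.7 FPKM with vehicle and none at 0 counts. Of 5 leukocyte markers 2 had a row, with 0.193 to 0.525 FPKM with panobinostat and 0.570 to 1.09 FPKM with vehicle. The part of these cell types in the results below was not tested.

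LINC00 genes rose with panobinostat more often than they fell. A level is given below in CPM, a count scaled to the library by TMM, and a change as a log2 fold change of panobinostat over vehicle with its standard error, from edgeR's quasi-likelihood test fitted to all genes. Genes were called at 0.05 after Benjamini-Hochberg adjustment over the 16084 genes tested. Of the 71 members tested, 35 rose, or 49.3%, where 33.6% of all genes tested rose. A fall was called for 12, or 16.9%, where 31.5% of all genes tested fell, and 24 members did not pass. Some 65.1% of all genes tested changed in either direction. The median log2 fold change was 0.67 over the members tested and 0.01 over all genes tested, and 0.67 also with LINC00351, which had 0 vehicle counts, at its bound. A change of at least 2-fold was called up for 26 members (36.6%, against 16.8% of all genes tested) and down for 4 (5.63%, against 5.25%). These 2-fold shares were not matched for level. The 26 include 12 members in which no vehicle library reached the level of the filter described below, which fixes their direction. The 3 libraries of each group did not overlap for 49 of the 71 members, against 68.8% of all genes tested, so full separation of the groups was about as frequent among the members as in the background.

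**Figure D1:**
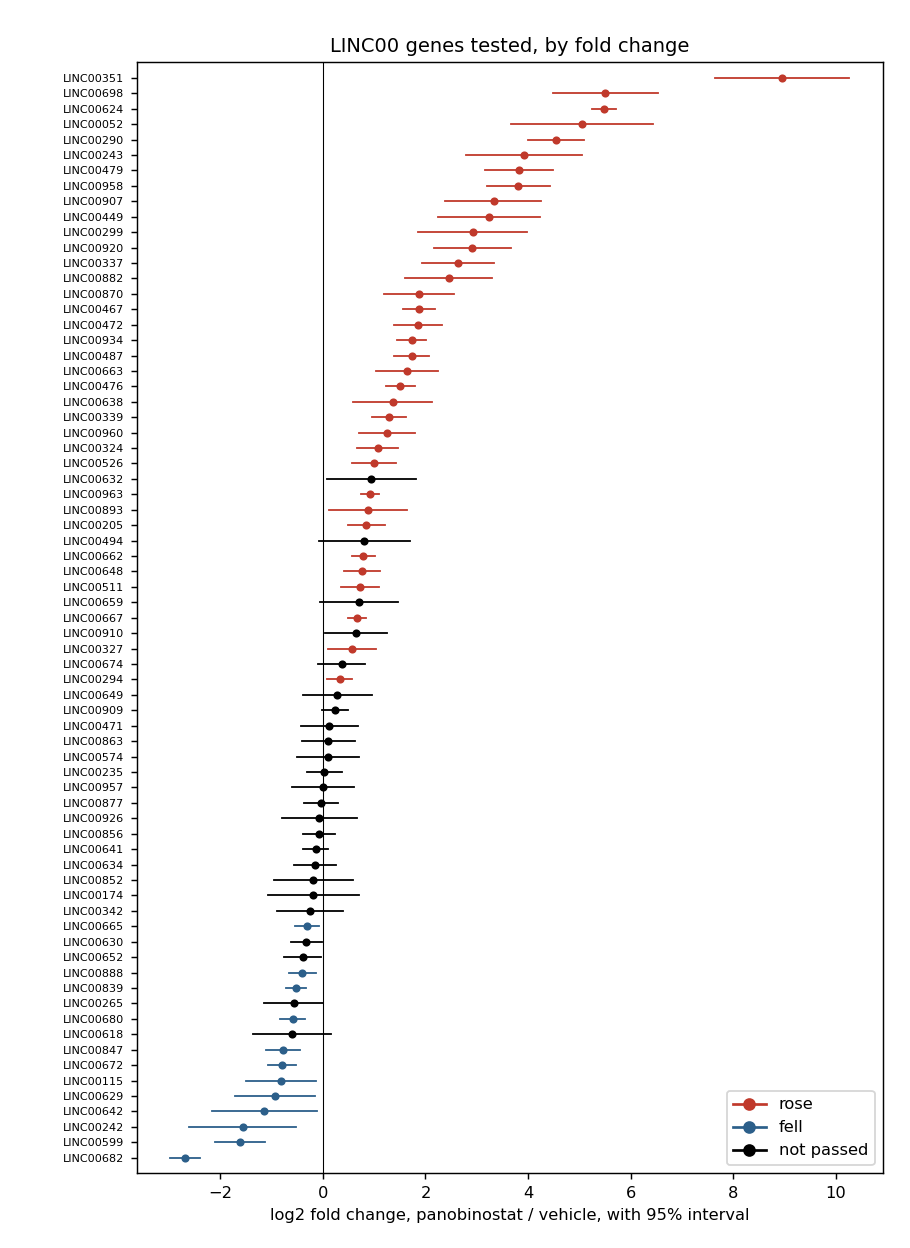
Log2 fold change of panobinostat over vehicle (horizontal axis) for the 71 LINC00 genes tested, sorted from the largest rise at the top, with 95% intervals as bars and the call as colour. The 35 genes that rose span 0.33 to 8.95 and the 12 that fell span -2.68 to -0.31, where the value of LINC00351 at the top depends on the prior count because it had 0 vehicle counts.

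The share that rose moved with level. Among all genes tested, those of low level rose more often, and the members are low: their median FPKM was 1.45 with panobinostat and 0.633 with vehicle, against 4.61 and 4.16 over all genes tested. Members and all genes tested were therefore set side by side within 5 classes of mean CPM over the 6 libraries. Under 1 CPM, 7 of 17 members rose and 3 fell, beside 45.6% and 6.74% of all genes tested in the class. From 1 to 3 CPM, 10 of 19 rose and 1 fell (44.3% and 11.4% of the class). From 3 to 10 CPM, 10 of 18 rose and 1 fell (43.7% and 21.4%). From 10 to 30 CPM, 5 of 14 rose and 7 fell (33.9% and 33.8%). At 30 CPM or more all 3 members, LINC00624, LINC00963 and LINC00667, rose (23.8% rose and 46.2% fell). The mean covers both groups, so a change can itself move a gene between classes, for members and all genes alike. LINC00624, at a mean of 2.20 CPM with vehicle and 99.0 CPM with panobinostat, is in the highest class only through its rise.

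Weighted by the members' classes, the shares of all genes tested come to 29.5 rises and 13.3 falls, against the 35 and 12 called. With the shares of all genes of long noncoding biotypes in place of all genes, they come to 29.4 and 12.6. With this mean level over both groups matched to all genes tested, 49.3% of members rose beside 41.5%, and 16.9% fell beside 18.7%. No test was made of this difference, since the members had been chosen with results in view.

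**Figure D2:**
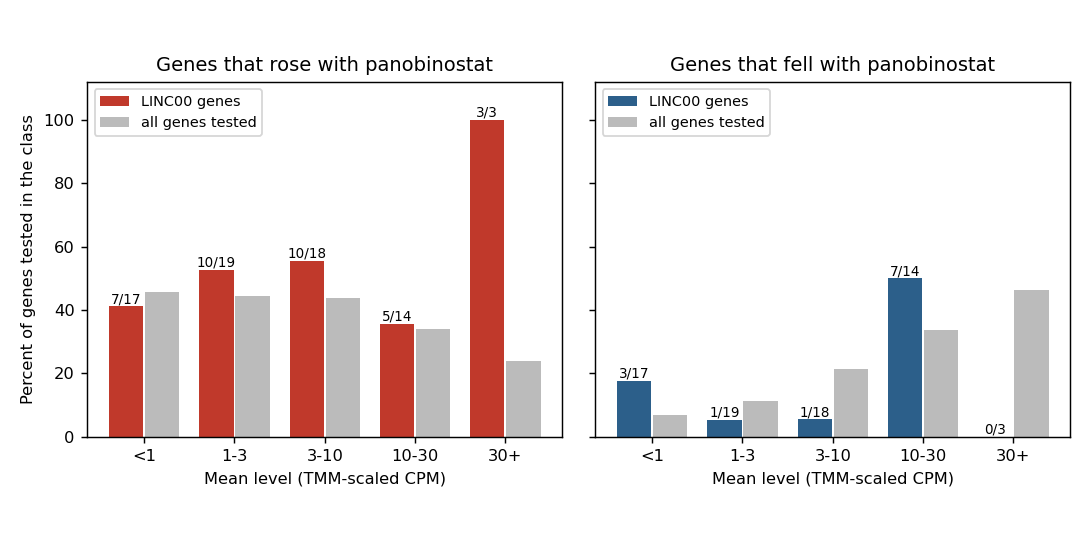
Percent of genes tested that rose (left panel) and fell (right panel) with panobinostat, by class of mean level in TMM-scaled CPM, for LINC00 genes (coloured bars, with the count of called over tested genes) and all genes tested (grey bars). Among rises, the LINC00 bar is under that of all genes in the lowest class and above it in the other 4, and the members of 10 to 30 CPM fell in 7 of 14 cases.

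The filter on low counts bears on these numbers as well. A gene entered the test when at least 3 libraries stood at 0.587 CPM or more, so a gene that is silent in vehicle could enter only by rising. In 12 members no vehicle library reached that level. All 12 rose, with a median log2 fold change of 3.82 (the same with LINC00351 at its bound). The filter fixes this direction, and also that the groups of these 12 do not overlap. In 1 member, LINC00242, no panobinostat library reached it, and that gene fell, which the filter fixes as well. Among the 46 members with all 6 libraries over the level, 19 rose and 9 fell (41.3% and 19.6%), beside 28.9% and 35.7% of all genes tested of that kind, and the class shares come to 15.1 and 11.3. The remaining 12 members had some libraries of both groups over the level, and 4 rose and 2 fell. LINC00525 and LINC00997 did not enter the test, and of 65 LINC00 genes under 50 counts (median 20) the 4 that did enter all rose. With so few counts a gene could hardly enter without a difference between libraries, so nothing is read from these 4.

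**Figure D3:**
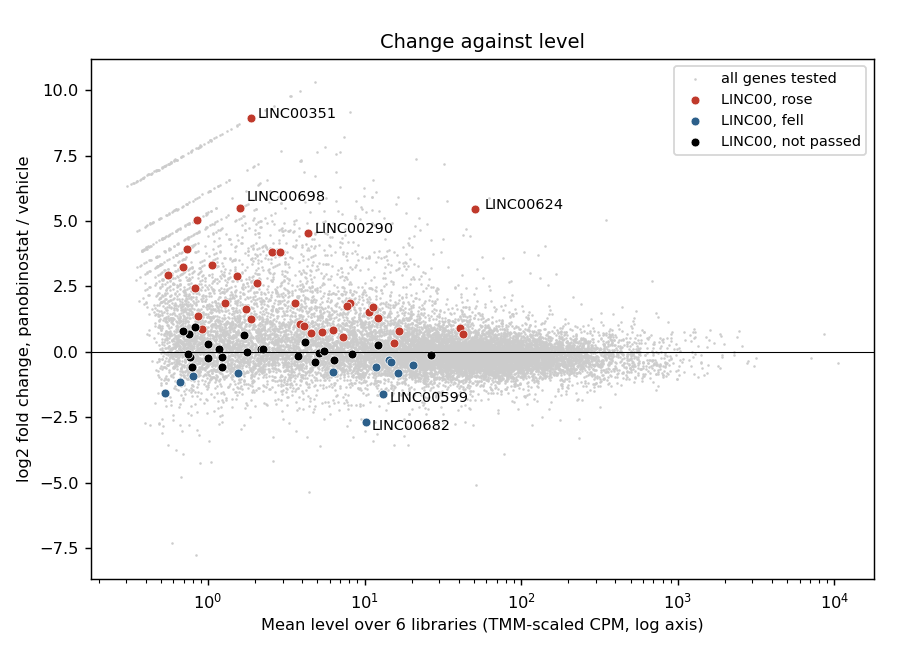
Log2 fold change of panobinostat over vehicle against mean level in TMM-scaled CPM (log axis) for all 16084 genes tested (grey) and the 71 LINC00 genes tested (red rose, blue fell, black not passed). The diagonal rows of grey points at the upper left are genes with very few vehicle counts, and LINC00624 lies apart from the other members at 50.6 CPM over the 6 libraries.

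Added together, the 73 members held 582.4, 593.7 and 587.3 CPM in panobinostat libraries A, B and C, against 378.7, 388.9 and 381.5 CPM in the vehicle libraries. The groups lay far apart and each was tight. LINC00624 alone gave 16.5% to 17.1% of the panobinostat sum, against 0.527% to 0.666% of the vehicle sum. Without it the sums were 482.7 to 493.2 CPM with panobinostat and 376.7 to 386.8 CPM with vehicle. All 73 members had counts in every panobinostat library, whereas 1 to 3 were at 0 in each vehicle library. The latter were members only through their panobinostat counts, since the choice was by counts summed over all 6 libraries. The share of zeros over all genes was not taken, so nothing is read from this difference.

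The genes behind the largest rises were close to silent in vehicle. LINC00351 (chromosome 13, 85363601 to 85544570, plus strand of GRCh38, a lincRNA of 4 exons that overlaps no other gene) stood at 4.21, 3.79 and 3.37 CPM with panobinostat, against 0 counts in all 3 vehicle libraries. Its 186 panobinostat counts put it at least 60.4-fold higher than a floor of 3 counts over the vehicle group. The adjusted p of 2.58e-08 (edgeR's quasi-likelihood test) is for any change between the groups, not for that bound. LINC00698 (chromosome 3, 62950430 to 63125062) stood at 2.43, 3.61 and 3.37 CPM with panobinostat, against 0.144, 0.0585 and 0 CPM with vehicle. With 158 panobinostat counts and 3 vehicle counts, its ratio was 51.3, with an exact 95% counting interval of 17.2 to 251. The fitted log2 fold change of 5.50 became 6.43 without vehicle library A and 4.91 without vehicle library C. LINC00052 (chromosome 15, 87576929 to 87579866) stood at 2.50, 1.42 and 1.07 CPM with panobinostat, against 0.0721, 0 and 0.0578 CPM with vehicle. Its 79 and 2 counts gave a ratio of 38.5 (interval 10.3 to 323). In all 3 genes the lowest panobinostat library lay above the highest vehicle library, which the filter on low counts had fixed. The size of the fold rests on a handful of vehicle reads. These intervals cover counting error only.

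LINC00624 was the member that moved most in absolute level. It stood at 99.6, 101 and 96.7 CPM in panobinostat libraries A, B and C, against 2.02, 2.05 and 2.54 CPM in the vehicle libraries. The groups were separated by a wide margin and neither held a library that stood apart. The log2 fold change was 5.48 ± 0.11 (SE; adjusted p = 4.04e-14, edgeR's quasi-likelihood test), a 44.5-fold rise. Per length it went to 18.5 FPKM with panobinostat, the highest mean of any member, against 0.380 FPKM with vehicle. The gene (chromosome 1, 147258885 to 147517875, minus strand) is annotated as antisense, since its far end overlaps CHD1L, which codes for a chromatin remodeller of the SNF2 family and lies on the plus strand. CHD1L stood at 45.6, 47.6 and 50.8 CPM with panobinostat, against 90.5, 100.5 and 98.5 CPM with vehicle, and fell by 1.01 on the log2 scale (SE 0.08). Reads were assigned by strand, per the file headers, so the reads of this pair were counted apart.

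LINC00290 (chromosome 4, 181064089 to 181159149, minus strand), whose window with 2 TATAAA matches is shown above, stood at 7.14, 8.34 and 9.54 CPM with panobinostat, against 0.289, 0.468 and 0.289 CPM with vehicle. It rose by 4.54 ± 0.26 on the log2 scale (adjusted p = 8.16e-10, edgeR's quasi-likelihood test). Its short spliced length made it the second most abundant member per length after treatment, at 14.6 FPKM against 0.564 FPKM with vehicle. LINC00290 lies in a gene desert: its nearest coding gene, TENM3 (a teneurin, a transmembrane adhesion protein of neurons), is 985 kb away and did not pass (-0.04 ± 0.10).

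LINC00243 (chromosome 6, 30798654 to 30830659) stood at 1.36, 1.60 and 1.18 CPM with panobinostat, against 0.144, 0.117 and 0 CPM with vehicle, a log2 fold change of 3.93 ± 0.53 that became 3.33 without vehicle library C. LINC00479 (chromosome 21, 41711520 to 41715775) stood at 4.07, 5.86 and 4.45 CPM with panobinostat, against 0.433, 0.410 and 0.173 CPM with vehicle (3.82 ± 0.31). LINC00958 (chromosome 11, 12961842 to 12989548), also called BLACAT2 and described in bladder cancer, stood at 6.07, 5.50 and 4.55 CPM with panobinostat, against 0.361, 0.527 and 0.231 CPM with vehicle (3.81 ± 0.29). In these genes too the groups did not overlap, which the filter on low counts and the rule for naming had fixed. Each panobinostat library lay several times above every vehicle library. The adjusted p-values were 1.01e-05, 4.76e-08 and 1.87e-08 by edgeR's quasi-likelihood test.

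The rest of the 12 largest rises stood under 3 CPM with panobinostat and at a few reads with vehicle. LINC00907 stood at 1.78, 1.48 and 2.52 CPM with panobinostat, against 0.289, 0.0585 and 0.231 CPM with vehicle (3.33 ± 0.44). LINC00449 stood at 1.57, 1.12 and 1.07 CPM with panobinostat, against 0.144, 0.176 and 0.0578 CPM with vehicle (3.24 ± 0.47). No groups overlapped in these genes or in the 2 that follow, which the filter and the rule for naming had fixed. LINC00299 stood at 1.07, 0.828 and 1.07 CPM with panobinostat, against 0.0721, 0.0585 and 0.231 CPM with vehicle (2.92 ± 0.50). The value for LINC00299 became 3.78 without vehicle library C, which held most of its few vehicle counts. LINC00920 (chromosome 16, 66408524 to 66412135) stood at 2.85, 2.78 and 2.52 CPM with panobinostat, against 0.505, 0.468 and 0.116 CPM with vehicle (2.91 ± 0.35). It follows CDH5 on the same strand at a gap of 3.74 kb. CDH5, the gene of the endothelial cadherin, averaged 1.38 ± 0.148 CPM with panobinostat and 0.150 ± 0.0578 CPM with vehicle (SD, n = 3 each) and rose by 3.19 (SE 0.42). CDH5 is also a marker of endothelial cells. Of the 4 endothelial markers listed 3 had a row and 2 rose, and their summed level was 0.554 to 0.564 FPKM with panobinostat and 0.105 to 0.154 FPKM with vehicle, with none at 0 counts. The part of such cells in the LINC00920 result was not tested. In bulk RNA, fewer cells of a type and less RNA per cell cannot be told apart.

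**Figure D4:**
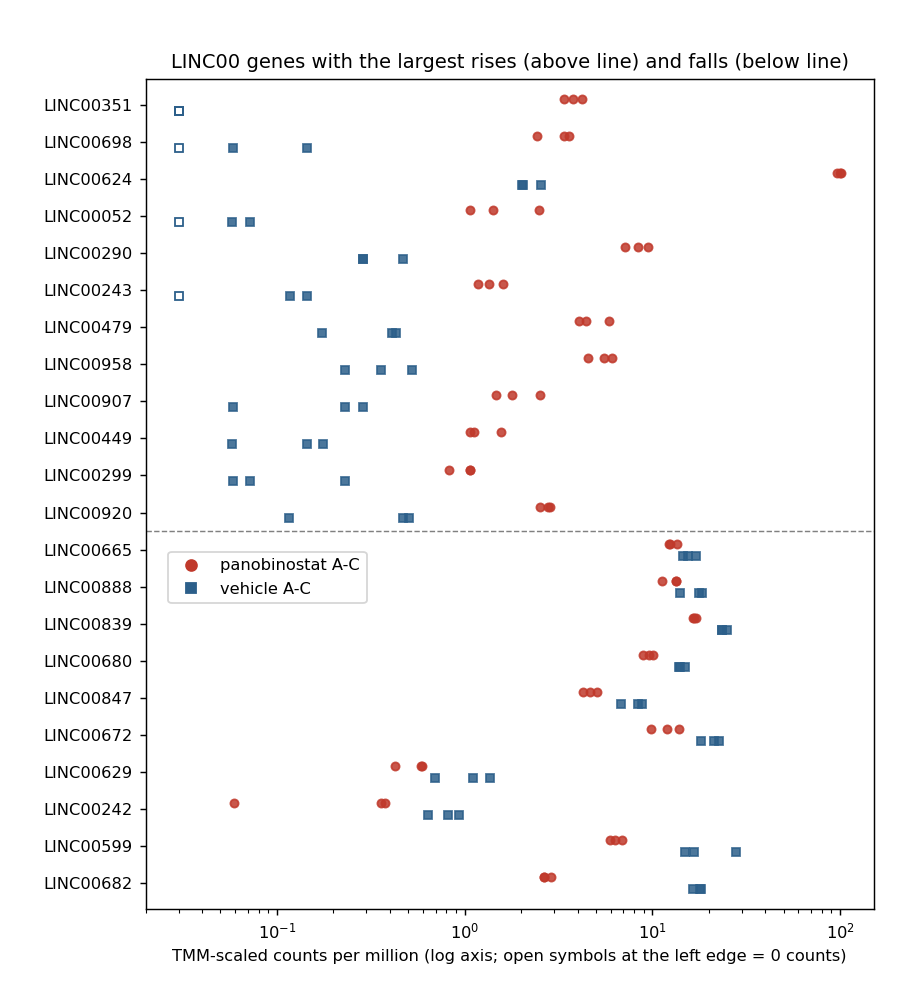
TMM-scaled CPM (log axis) in each of the 3 panobinostat libraries (red circles) and 3 vehicle libraries (blue squares) for the 12 LINC00 genes with the largest rises, above the dashed line, and the 10 with falls and groups that do not overlap, below it. Open squares at the left edge are vehicle libraries with 0 counts, and LINC00624 at 96.7 to 101 CPM is the highest of the genes shown.

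Members with a literature of their own were taken as a fixed set of 27 symbols, of which 16 were members. Of these, 7 rose: LINC00467, LINC00472, LINC00324, LINC00963, LINC00662, LINC00511 and LINC00667. A further 4 fell (LINC00665, LINC00839, LINC00847 and LINC00888), and 5 did not pass. Over all genes tested 33.6% rose and 31.5% fell, shares that were not matched to the level of this set. LINC00467, described in neuroblastoma as a noncoding RNA repressed by MYCN, stood at 12.1, 13.7 and 12.1 CPM with panobinostat, against 2.89, 3.98 and 3.41 CPM with vehicle. It rose by 1.87 ± 0.15 on the log2 scale, or 3.67-fold, and its groups lay well apart (adjusted p = 3.56e-08, edgeR's quasi-likelihood test).

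LINC00472 (chromosome 6, 71344344 to 71420769, minus strand), described as lost in aggressive breast cancer, stood at 5.50, 6.51 and 4.77 CPM with panobinostat, against 1.80, 1.70 and 1.16 CPM with vehicle. The lowest panobinostat library was above the highest vehicle library, and the gene rose by 1.85 ± 0.22 (adjusted p = 2.32e-06, edgeR's quasi-likelihood test). Its body holds the hairpins of MIR30A and MIR30C2 on the same strand. The mature RNAs from their 5′ arms are shown because the host gene's rise is the only measure of this locus here; capitals mark the seed, bases 2 to 8 (RefSeq, GRCh38.p14).
hsa-miR-30a-5p: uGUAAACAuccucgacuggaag
hsa-miR-30c-5p: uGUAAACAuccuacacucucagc
The seeds are the same 7 letters, the mark of the miR-30 family, and the mature miRNAs were not measured in these libraries.

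The other rises of the set were smaller. LINC00963 stood at 55.0, 53.3 and 50.2 CPM with panobinostat, against 27.8, 27.8 and 28.2 CPM with vehicle (0.92 ± 0.08). LINC00667 stood at 53.0, 50.5 and 53.3 CPM with panobinostat, against 31.0, 34.1 and 33.2 CPM with vehicle (0.67 ± 0.08). LINC00662 averaged 21.0 ± 0.991 CPM with panobinostat and 12.1 ± 0.744 CPM with vehicle (SD, n = 3 each), and its log2 fold change was 0.79 ± 0.10. These 3 are among the most abundant members by count, their groups were tight, and each rise was under 2-fold. LINC00511, reported as raised in several carcinomas, stood at 5.35, 6.39 and 5.36 CPM with panobinostat, against 3.75, 3.04 and 3.58 CPM with vehicle (0.73 ± 0.17). LINC00324 stood at 5.00, 5.38 and 5.36 CPM with panobinostat, against 2.38, 3.04 and 2.08 CPM with vehicle (1.07 ± 0.19). The adjusted p-values of these 5 genes ran from 1.08e-07 for LINC00963 to 0.0015 for LINC00511 (edgeR's quasi-likelihood test).

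Of the fixed set, LINC00174, LINC00632, LINC00641, LINC00909 and LINC00910 did not pass. LINC00632, the transcript from which the circular RNA CDR1as is made, stood at 1.64, 0.769 and 0.911 CPM with panobinostat, against 0.361, 0.468 and 0.809 CPM with vehicle. Its groups overlapped and its log2 fold change was 0.94 ± 0.40 (95% interval 0.08 to 1.81, adjusted p = 0.0515, edgeR's quasi-likelihood test). It passed without panobinostat library B (adjusted p = 0.0342) or vehicle library C (0.0258). LINC00910 had a log2 fold change of 0.65 ± 0.28 (adjusted p = 0.0553) and passed without panobinostat library C (0.0294) or vehicle library C (0.0255). LINC00909 had one of 0.24 ± 0.12 (adjusted p = 0.0823) and passed without panobinostat library A (0.0419). LINC00641, at -0.14 ± 0.11 (adjusted p = 0.291), passed downward without panobinostat library A (0.0204). LINC00174, at -0.19 ± 0.41 (interval -1.07 to 0.70), had a panobinostat library C of 0.375 CPM beside 1.43 and 1.72 CPM in A and B, and without C its value was 0.28.

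The falls were fewer and mostly small. LINC00682 (chromosome 4, 41872747 to 41882955, minus strand), whose window with a TATAAA match is shown above, fell by the most. It stood at 2.64, 2.66 and 2.89 CPM in panobinostat libraries A, B and C, against 16.4, 18.2 and 18.0 CPM in the vehicle libraries. All panobinostat libraries were far below all vehicle libraries, and the log2 fold change was -2.68 ± 0.14 (adjusted p = 2.36e-10, edgeR's quasi-likelihood test), a 6.40-fold difference. Its nearest coding gene, TMEM33, is 52.2 kb away and did not pass (0.10 ± 0.09). Of the 12 neuroblast markers 8 fell, and the part of cell identity in the LINC00682 result was not tested.

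LINC00599, the host transcript of the neuronal microRNA gene MIR124-1, stood at 5.92, 6.92 and 6.32 CPM with panobinostat, against 28.0, 14.9 and 16.6 CPM with vehicle. Vehicle library A was the highest by far, but every panobinostat library lay under every vehicle library. The log2 fold change was -1.62 ± 0.22 (adjusted p = 6.83e-05, edgeR's quasi-likelihood test), and miR-124 itself was not measured. LINC00242 (chromosome 6, 169788790 to 169799549), with the TGACGT core and CCAAT in its window, stood at 0.357, 0.0591 and 0.375 CPM with panobinostat, against 0.938, 0.819 and 0.635 CPM with vehicle. It fell by 1.56 on the log2 scale (SE 0.49; adjusted p = 0.0106), and without panobinostat library B, which held a single read, the value was -1.09 and did not pass (adjusted p = 0.0646). LINC00629 (-0.93 ± 0.37, adjusted p = 0.0356) passed with all libraries, but not without any of panobinostat A, B or C or vehicle A or B (adjusted p = 0.095, 0.0687, 0.0671, 0.125 and 0.0925). LINC00115 (-0.82 ± 0.32) and LINC00642 (-1.14 ± 0.48) fell with groups that overlapped, and are named after their values were seen. LINC00115 did not pass without panobinostat library B or C or vehicle library A (adjusted p = 0.158, 0.0922 and 0.129), nor LINC00642 without panobinostat A or C or vehicle A or C (0.0924, 0.19, 0.221 and 0.0647). The value of LINC00642 became -1.68 without panobinostat library B. The calls of both were also lost with DESeq2 (adjusted p = 0.0836 for LINC00115 and 0.115 for LINC00642), library size alone (0.0681 and 0.0749) and upper quartile scaling (0.0747 and 0.0796).

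The 8 members with the highest mean FPKM in vehicle were LINC00839, LINC00672, LINC00888, LINC00682, LINC00667, LINC00674, LINC00641 and LINC00680, and of these 5 fell, 1 rose and 2 did not pass. A choice by vehicle level by itself favours falls, so nothing is read from this count. LINC00839 averaged 7.43 FPKM with panobinostat and 9.84 FPKM with vehicle. By count it averaged 16.7 ± 0.295 CPM with panobinostat and 23.9 ± 0.883 CPM with vehicle (SD, n = 3 each), with no overlap, and fell by 0.52 on the log2 scale (SE 0.09; adjusted p = 0.000167, edgeR's quasi-likelihood test). LINC00672, at 9.85, 11.9 and 13.9 CPM with panobinostat against 18.1, 22.7 and 21.4 CPM with vehicle, fell by 0.80 (SE 0.13). GENCODE release 29 annotates LINC00672 as protein-coding, and it lies 3.40 kb past LASP1, the gene of an actin-binding LIM protein, which fell by 0.32 (SE 0.07).

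LINC00847 stood at 4.64, 5.09 and 4.29 CPM with panobinostat, against 6.78, 8.37 and 8.78 CPM with vehicle (-0.78 ± 0.15). It overlaps HEIH, a noncoding RNA described in liver cancer, on the opposite strand, and its window above holds 14 CpG. LINC00680 averaged 9.51 ± 0.588 CPM with panobinostat and 14.3 ± 0.627 CPM with vehicle (SD, n = 3 each), a log2 fold change of -0.59 ± 0.11 with no overlap. LINC00888 (-0.40 ± 0.12, adjusted p = 0.011) did not pass without vehicle library B (adjusted p = 0.0533). LINC00665 (-0.31 ± 0.11, adjusted p = 0.0245) did not pass without panobinostat library C or vehicle library A (0.09 and 0.0659). Both falls also failed with library size alone (adjusted p = 0.0549 for LINC00888 and 0.148 for LINC00665) and with upper quartile scaling (0.0814 and 0.205). LINC00680, LINC00888 and LINC00674 are annotated as transcribed pseudogenes, whose reads may be shared with a parent gene, so their levels are uncertain. LINC00674 did not pass (0.37 ± 0.21), but it did without vehicle library C (0.59, adjusted p = 0.0394).

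The other 16 genes that rose had log2 fold changes from 0.33 to 2.63 and are named after their values were seen. The largest of these were in LINC00337, which overlaps the methyltransferase gene ICMT on the opposite strand and stood at 3.35, 3.67 and 3.54 CPM with panobinostat, against 0.793, 0.176 and 0.751 CPM with vehicle (2.63 ± 0.33), and in LINC00882 (2.45 ± 0.39). Next came LINC00870 (1.88 ± 0.32), LINC00934 (1.73 ± 0.14), LINC00487 (1.73 ± 0.16) and LINC00663 (1.65 ± 0.28). Of the genes named so far in this paragraph LINC00934 was the most abundant by count. It stood at 17.6, 17.9 and 16.9 CPM with panobinostat, against 4.26, 6.26 and 5.14 CPM with vehicle, with a clear gap between the groups. LINC00476 (1.51 ± 0.13), LINC00638 (1.36 ± 0.36), LINC00339 (1.29 ± 0.16), LINC00960 (1.25 ± 0.26) and LINC00526 (1.00 ± 0.20) rose by 2-fold or more. LINC00205 (0.85 ± 0.17) and LINC00648 (0.76 ± 0.16) rose by less.

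Some calls among the small rises rest on which libraries were used. LINC00294 (0.33 ± 0.11, adjusted p = 0.0196) did not pass without panobinostat A or B or vehicle A or C (adjusted p = 0.0535 to 0.07), nor with DESeq2 (0.0609). LINC00327 (0.57 ± 0.22) overlapped between groups, and without panobinostat library C, at 11.8 CPM beside 6.78 and 7.51 CPM in A and B, it stood at 0.28 (adjusted p = 0.241). It did not pass without vehicle A or C either (0.128 and 0.109), nor with no filter on low counts (0.051). LINC00893 (0.89 ± 0.35) did not pass when any library but vehicle B was left out (adjusted p = 0.0643 to 0.155), and without vehicle B it stood at 1.39. With DESeq2 its adjusted p was 0.15. The 24 members that did not pass had log2 fold changes of -0.60 to 0.94, with a median of -0.02, and a p that misses the threshold does not show that a level is the same in both groups. Of these, LINC00630 (-0.32) passed without panobinostat library A or vehicle library A (adjusted p = 0.0489 and 0.0482), and LINC00652 (-0.39) without panobinostat C or vehicle C (0.0443 and 0.0372).

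The name LINC00 covered more than intergenic RNAs. The annotation gave 52 of the 73 members as lincRNA, 8 as antisense, 5 as processed transcript, 3 as transcribed unprocessed pseudogene, 2 as bidirectional promoter RNA and 1 each as protein-coding, sense overlapping and transcribed unitary pseudogene. Among the lincRNAs tested 28 of 51 rose and 9 fell (54.9% and 17.6%), beside 47.3% and 13.5% of all genes tested of that biotype. Among antisense RNAs 3 of 7 rose and 0 fell, and among the others 4 of 13 rose and 3 fell. Of the 30 tested members that overlap no other gene 14 rose and 6 fell, and of the 41 that overlap another gene 21 rose and 6 fell. Members had a median of 3 exons and a spliced length of 2351 nt in their longest transcript, against 2 exons and 1587.5 nt for the other long noncoding genes tested, at the same median GC content of 47.4%. The genes that rose and fell were of like length (2342 and 2139.5 nt).

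The nearest coding gene overlapped 16 of the 73 members, lay within 10 kb of 34 and was over 100 kb from 12, with a median gap of 15621 bp. In 58 pairs both genes were tested. Where the member rose, the neighbour rose in 12 pairs, fell in 4 and did not pass in 11. Where the member fell, the neighbour rose in 5, fell in 2 and did not pass in 5. Where the member did not pass, the neighbour rose in 5, fell in 5 and did not pass in 9. Of all 12988 protein-coding genes tested, 33.5% rose and 35.6% fell, and no test was made of the difference from these counts. Across the 58 pairs, which share libraries and in a few cases a neighbour, the Pearson correlation of the log2 fold changes was 0.14 and the Spearman correlation 0.15. For gaps of 10 kb or less (28 pairs) they were 0.07 and 0.03, and for longer gaps (30 pairs) 0.17 and 0.27. For the 7 pairs with starts within 2 kb on opposite strands they were 0.63 and 0.50, and of these members 4 rose, with 1 neighbour that rose, 1 that fell and 2 that did not pass.

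**Figure D5:**
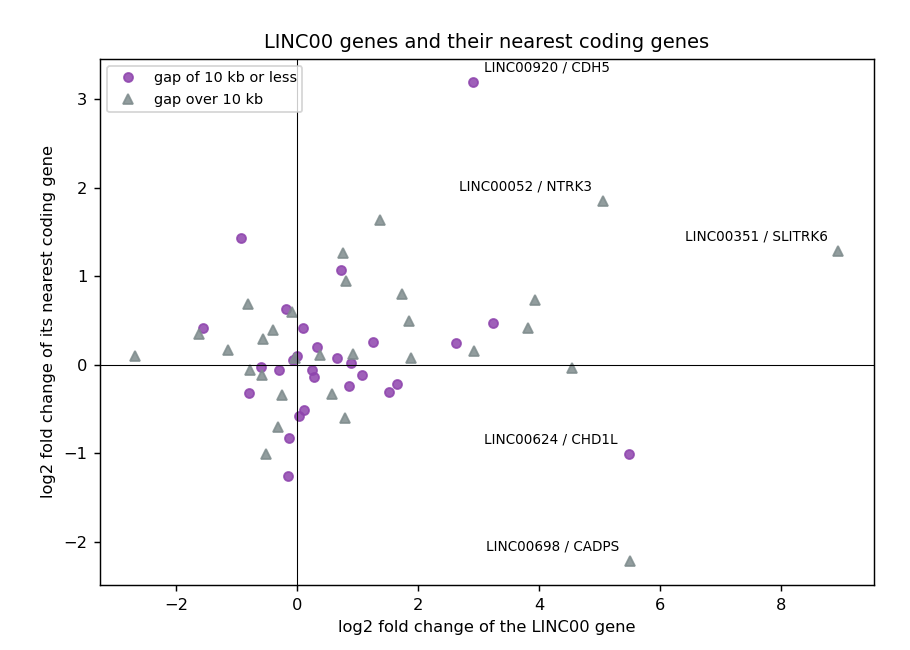
Log2 fold change of the nearest coding gene (vertical axis) against that of the LINC00 gene (horizontal axis) for the 58 pairs with both genes tested, with gaps of 10 kb or less as circles and longer gaps as triangles. Points lie on all sides of the origin: LINC00920 and CDH5 are both high, while LINC00624 and CHD1L, and LINC00698 and CADPS, differ in sign.

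Single loci show both kinds of pair. Next to LINC00698 lies CADPS, a gene of synaptic vesicle priming, at a gap of 75.0 kb with its head towards the member. CADPS stood at 12.6, 12.1 and 17.0 CPM with panobinostat, against 63.8, 66.6 and 65.4 CPM with vehicle, and fell by 2.22 on the log2 scale (SE 0.11). On the far side of the same member, SYNPR, the gene of the synaptic vesicle protein synaptoporin, averaged 4.93 ± 0.481 CPM with panobinostat and 0.125 ± 0.0597 CPM with vehicle (SD, n = 3 each) and rose by 5.23 (SE 0.34). The coding genes on either side of LINC00698 thus moved in opposite directions. Next to LINC00351, SLITRK6 rose by 1.28 (SE 0.09) at 248 kb, and next to LINC00052, NTRK3, the receptor of neurotrophin-3, rose by 1.85 (SE 0.21) at 280 kb. LINC00449 lies within TM9SF2 on the opposite strand, and TM9SF2 rose by 0.47 (SE 0.08). LINC00629 and PLAC1, a placental gene 5.92 kb away with its tail towards the member, differed in sign: PLAC1 stood at 7.85, 11.5 and 9.70 CPM with panobinostat, against 4.26, 2.69 and 3.93 CPM with vehicle, and rose by 1.43 (SE 0.19).

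Within 200 kb of the 12 largest rises, a distance chosen after values were seen, 33 coding genes were tested, of which 13 rose, 8 fell and 12 did not pass. Within 200 kb of the 10 falls 38 were tested, of which 10 rose, 19 fell and 9 did not pass. These counts stand beside the 33.5% of all protein-coding genes tested that rose and the 35.6% that fell, and genes of 1 locus are not independent. Of the 8 coding genes tested within 200 kb of LINC00665, 7 fell by 0.27 to 0.51 on the log2 scale, among them the zinc finger genes ZNF146 (-0.36 ± 0.08) and ZNF566 (-0.49 ± 0.09). Around LINC00624, ACP6 rose by 3.02 (SE 0.26) and BCL9, a co-activator of Wnt signalling, fell by 0.52 (SE 0.15). Around LINC00243, IER3, an immediate early gene, rose by 2.37 (SE 0.14) and TUBB, a beta-tubulin gene, fell by 0.88 (SE 0.09). Around LINC00958, RASSF10, a Ras-association domain gene, rose by 2.16 (SE 0.15) and TEAD1, a transcription factor of the Hippo pathway, by 0.42 (SE 0.10).

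Other noncoding families differed in how they were called, in shares that were not matched for level. The part of level in these differences was not tested. Genes with symbols of LINC01 or LINC02 and 3 digits rose in 70 of 138 cases (50.7%) and fell in 19 (13.8%), with a median log2 fold change of 0.57. Antisense genes with symbols ending in -AS and a digit rose in 152 of 349 cases (43.6%) and fell in 69 (19.8%). Of all 1866 genes of long noncoding biotypes, 777 rose (41.6%) and 272 fell (14.6%), and of the 732 annotated as lincRNA 346 rose (47.3%) and 99 fell (13.5%). The share of LINC00 members that rose, 49.3%, lay close to those of the LINC01 and LINC02 genes and of all lincRNAs. Host genes of small nucleolar RNAs (SNHG) rose in 5 of 21 cases and fell in 6. Protein-coding genes rose in 33.5% and fell in 35.6% of 12988 cases.

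A list of 48 named long noncoding RNAs had 34 genes tested, of which 15 rose (44.1%) and 9 fell (26.5%). Of all genes of long noncoding biotypes tested 41.6% rose and 14.6% fell. MALAT1, an abundant nuclear RNA, averaged 806 ± 234 CPM with panobinostat and 272 ± 33.9 CPM with vehicle (SD, n = 3 each) and rose by 1.57 (SE 0.21). NEAT1, the scaffold of paraspeckles, rose by 1.82 (SE 0.34) and averaged 1.58 ± 0.246 CPM with panobinostat. DLEU1 rose by 2.20 (SE 0.15), MIR22HG by 2.41 (SE 0.30) and LUCAT1 by 4.26 (SE 0.45). MIR17HG, the host of the miR-17 cluster, fell by 0.90 (SE 0.15), DLX6-AS1 fell by 1.19 (SE 0.13), and TUG1 did not pass (-0.14 ± 0.09).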

How the data were processed

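Total RNA of 6 libraries was sequenced, and groups and letters came from the labels. Per the file headers, the deposited counts per gene are whole reads that featureCounts 1.5.0-p3 assigned to genes of Ensembl release 84, reading strand (option 2). The submitters' processing notes name featureCounts 1.5.1, Subread, Novoalign 2.8 and hg38. The FPKM values, also deposited, are the authors' own. They are proportional to the counts, so they are the same measurement in another unit. The counting command lists further alignment files, which were not analysed here.

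GENCODE release 29 gave symbols, biotypes and GRCh38 coordinates for 22459 of 22718 identifiers. In edgeR 4.0.16 (R 4.3.3), filterByExpr kept genes at a minimum count of 10 and a total of 15, libraries were scaled by TMM, and the robust quasi-likelihood test compared the groups over all 6 libraries with no other term. Calls were made at 0.05 after Benjamini-Hochberg adjustment. CPM values are TMM-scaled. Alternatives were DESeq2 1.42.0, 3 other scalings, 2 other filters, an adjusted p of 0.01, the letter as a block, limma 3.58.1 on log2(FPKM + 1) and log2(FPKM + 0.1), other minimum counts of a member, and each library left out.

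Named members were up to 12 rises and 12 falls with the largest change, a mean of 0.5 CPM or more and groups that do not overlap, the 8 highest by vehicle FPKM, a fixed set, and members at 0 counts in a group. Members, lists and this rule were chosen with earlier results of these data known. Spearman correlations over genes were 0.977 to 0.986 within groups and 0.934 to 0.943 between them, and every pair of libraries differed by more than sampling noise (chi-square per gene at least 2.64). The floor of 3 counts equals 0.161 to 0.216 CPM. Intervals and floors cover counting error only.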

Additional observations from a re-analysis of the deposited data

How the results depend on the processing

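Of 1017 values of the 71 members under the alternatives, 937 kept their side of the threshold, 54 no longer passed, 26 newly passed and 0 called values changed sign. Some values that did not pass did change sign, such as LINC00174 at -0.19 with all libraries and 0.28 without panobinostat library C. The count of members that rose was 35. It was 32 to 35 with each library left out, 22 with limma on log2(FPKM + 1), where 41 members were tested, 21 with a summed count of 200 or more (40 tested) and 14 without members that overlap another gene (30 tested). The count that fell was 12. It was 9 to 12 with each library left out, 7 with library size alone, 7 with upper quartile scaling, 6 with limma on log2(FPKM + 1), 6 at an adjusted p of 0.01 and 6 without overlapping members. The median change over all genes shifted up by 0.11 (log2) with library size alone, 0.14 with upper quartile scaling and 0.11 with FPKM, and with upper quartile scaling 6562 genes rose and 3827 fell, against 5409 and 5067. With library size alone 6334 rose and 4043 fell. DESeq2 ended the calls of LINC00115, LINC00294, LINC00629 (adjusted p = 0.133), LINC00642 and LINC00893. Library size alone and upper quartile scaling each ended those of LINC00115, LINC00629 (0.0626 and 0.07), LINC00642, LINC00665 and LINC00888. Both scalings newly passed LINC00632 (0.0327 and 0.0281), LINC00909 and LINC00910, and upper quartile scaling LINC00674 (0.0499). Limma at a pseudocount of 1 ended LINC00115, LINC00327, LINC00665 and LINC00888, and at 0.1 LINC00115, LINC00642, LINC00665 and LINC00888. The labels do not say whether the letters pair the libraries, and correlations this weak cannot decide it. Deviations from the group mean correlated at 0.081, -0.021 and 0.104 for A, B and C over genes. Unlike letters ran from -0.119 to 0.047, and panobinostat B did not correlate best with its own letter. With the letter as a replicate block 35 members rose, 10 fell, the calls of LINC00629 and LINC00642 were lost, and 10540 genes passed, against 10476. With limma on FPKM, 8 falls and 39 rises passed at a pseudocount of 0.1. The causes of these differences were not tested. At this depth members under 1 CPM rest on a few reads a library, and a change there that misses the threshold was not detectable, not absent.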
